A study of Homo sapiens with 3 samples.

Results

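Cluster 5 is a group of 1798 cells among 20844 embryonal carcinoma (EC) cells in 14 clusters, numbered 0 to 13, which were under treatment to become like yolk-sac tumor (YST) cells. Its members are the cells that carry cluster number 5 in the deposited cell table, summed over all libraries, and its profile is the deposited average of these cells for 32727 genes. They made up 8.63% of all cells (exact Clopper-Pearson 95% interval 8.25 to 9.02, counting error only). Cluster numbers follow the deposited files, and no match to the numbering in the study's own text was attempted. The working label of the cluster was low-complexity, ribosomal-rich cells with *POU5F1* and *ACTB* as markers, and the data bear this out only in part.

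The data came from 1 droplet-based library each of NCCIT, GCT27 and 2102EP, human EC lines that stand for the stem cell-like component of non-seminomatous germ cell tumors. In all 3 lines endogenous *SOX17* was switched on by lentiviral CRISPR activation, and Activin A (100 ng/ml), the WNT agonist CHIRON (3 µM), FGF2 (25 ng/ml) and heparin (1 µg/ml) were given until day 8, with the medium renewed every 48 h. Every cell measured had this treatment, so cluster 5 can be set only against other treated cells. Each line was 1 culture, and a continuous cell line is a model without the surrounding tissue of a tumor.

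A droplet captures the polyadenylated RNA of 1 cell and tags each molecule with a unique molecular identifier (UMI). Cytoplasmic messages such as those of ribosomal proteins are short, abundant and long-lived, while transcripts such as *MALAT1* and *NEAT1* stay in the nucleus, and long genes add unspliced nuclear RNA where introns are counted. The balance between these classes therefore differs with how much nuclear and cytoplasmic RNA a droplet held, as well as with what a cell transcribes.

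A single library supplied 1308 of the 1798 cells (72.7%), although it held 40.8% of all cells. The other two libraries supplied 370 and 120 cells. Cluster 5 took up 15.4% of the cells of the first library, 6.81% of the second and 1.74% of the third. The library codes match no sample label, so no share could be given to a cell line. The averages pool the libraries, and the identity of the library and that of the cluster cannot be told apart in them. For that reason many values are also given against clusters 6, 8 and 10 alone, a comparison chosen after the data were seen. The same library was the largest in these, with 62.1%, 68.0% and 63.7% of their cells. Because the clusters were formed from the same expression values, all differences are descriptions and no test was made.

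The ribosomal protein transcripts with the most UMIs in cluster 5 are shown first, since they carry much of its profile. Messages of the translation machinery often begin with a C followed by a run of pyrimidines, the terminal oligopyrimidine tract, through which their translation is controlled together. The following windows run from 10 bases before to 20 bases from the RefSeq transcription start (GRCh38.p14, 5′ to 3′ on the gene's strand), with a C at the start followed by at least 4 pyrimidines in capitals.
RPL41: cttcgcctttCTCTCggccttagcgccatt
RPS12: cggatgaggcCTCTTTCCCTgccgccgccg
RPL32: acgacccatcagcccttgcgcgccaccgtc
RPL39: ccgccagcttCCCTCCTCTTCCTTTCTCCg
RPS3: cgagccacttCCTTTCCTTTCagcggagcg
RPLP1: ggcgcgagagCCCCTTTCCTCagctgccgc
They lie at chr12:56116623-56116652 (plus strand), chr6:132814559-132814588 (plus), chr3:12841546-12841575 (minus), chrX:119791611-119791640 (minus), chr11:75399508-75399537 (plus) and chr15:69452808-69452837 (plus). Such a tract stood at the annotated start of 43 of 63 ribosomal protein genes with a promoter entry (68.3%), of 11 of 13 other translation genes (84.6%), of 8 of 64 nuclear encoded respiratory chain genes (12.5%) and of 0 of 27 proteasome genes. Among all 27305 promoters of the table it stood at 4.04%. The match depends on the annotated start base, and *RPL32* had none at that base.

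How short these messages can be is seen from 3 coding sequences (GENCODE 44, GRCh38, start and stop codon in capitals), of which *RPL41* encodes 25 amino acids, *RPL39* 51 and *RPS29* 56. Their genes span chr12:56116590-56117967, chrX:119786504-119791630 and chr14:49570984-49599164.
RPL41: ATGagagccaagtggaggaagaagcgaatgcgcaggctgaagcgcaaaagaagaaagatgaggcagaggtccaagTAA
RPL39: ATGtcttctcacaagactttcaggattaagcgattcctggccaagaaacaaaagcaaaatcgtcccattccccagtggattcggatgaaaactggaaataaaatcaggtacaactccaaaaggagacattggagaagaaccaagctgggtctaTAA
RPS29: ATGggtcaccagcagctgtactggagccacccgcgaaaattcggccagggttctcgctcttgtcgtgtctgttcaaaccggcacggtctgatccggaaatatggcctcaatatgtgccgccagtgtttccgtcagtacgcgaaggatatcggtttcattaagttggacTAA

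The cells of cluster 5 were uneven in depth. The averages are means over cells of each cell's UMIs per 10000, and a gene seen as 1 UMI in 1 cell therefore gives back the UMI total of that cell. In cluster 5, 583 such totals were recovered, which is 32.4% of its cells. They ran from 411 to 128125 UMIs with a median of 18080 and a 10th percentile of 950.4. Of these totals, 196 (33.6%) were under 5000 UMIs and 63 were under 1000. In the other 13 clusters at most 1.996% of recovered totals were under 5000, and their 10th percentiles ran from 10977 to 46815. The depth was not low throughout, since 344 totals in cluster 5 (59.0%) were above 10000, with a median of 26691 among them. Cells of high depth have more genes seen once and are likelier to be recovered. A gene seen as 2 UMIs in 1 cell can also pass as a cell with a smaller total. Totals with a small whole multiple recovered in the same cluster were dropped, yet in cluster 12 the method gave 183 totals for 180 cells.

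**Figure D1:**
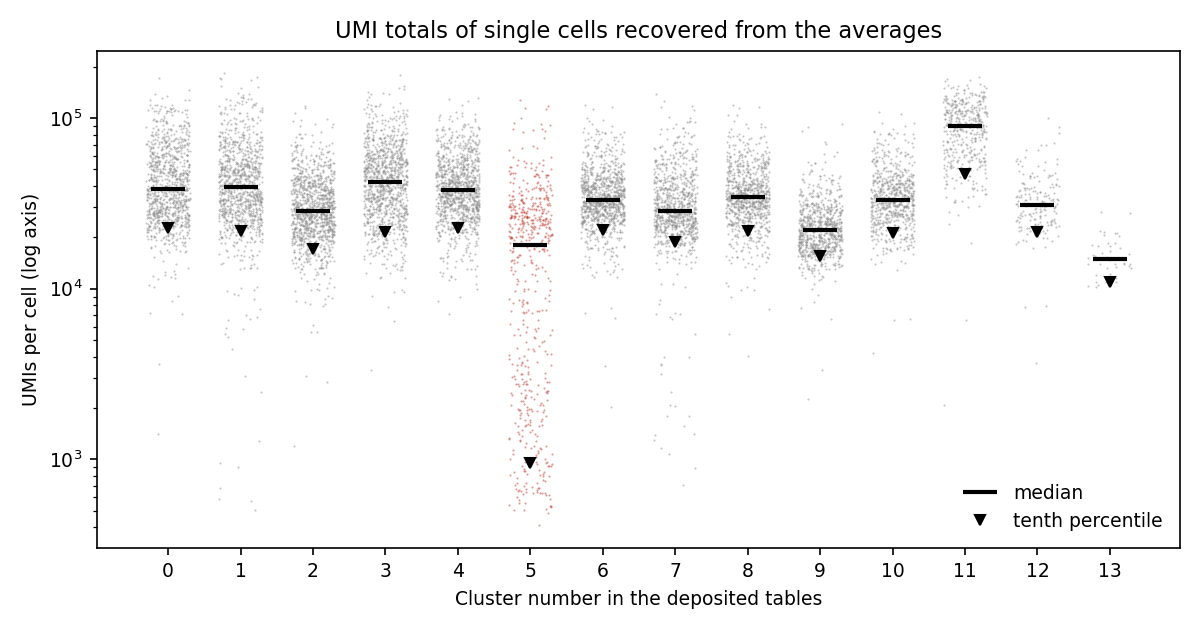
UMI totals of single cells recovered from the deposited averages, by cluster (log axis), with each dot 1 cell, bars the median and triangles the 10th percentile. Cluster 5 (red) reached down to 411 UMIs and had a 10th percentile of 950.4, while 344 of its 583 totals were above 10000, against at least 97.1% of the totals of each other cluster.

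Detection was low as well. The authors' table of genes higher in a cluster lists 502 genes for cluster 5 and gives the share of cells with at least 1 UMI. For 499 of these 502 genes (99.4%) that share was smaller in cluster 5 than in all other cells, although the average level was higher. In the other clusters this held for 0 to 32 genes and at most 20.5% of the list. The median share was 42.5% in cluster 5 and 93.0% elsewhere. The exceptions were *TMSB4X* (61.7% of cells in cluster 5 and 52.5% elsewhere), *LINC00458* (41.2% and 35.0%) and *MIR302CHG* (31.8% and 30.8%). *TMSB4X* encodes a small actin-binding peptide and *MIR302CHG* hosts microRNAs of pluripotent cells. Ribosomal protein genes stayed in sight in most cells, with a median of 90.2% over 57 listed genes against 99.4% elsewhere. For 18 proteasome genes the medians were 48.5% and 96.1%, and for 31 respiratory chain genes 51.6% and 96.0%. If UMIs fell on cells as a Poisson count at the average level, the detected shares of 408 genes would correspond to a median of 2110 UMIs per cell in cluster 5 and 14981 elsewhere. In the other 13 clusters the same figure lay between 7055 and 33331. This figure was added after the data were seen, and it describes an unevenness between cells as well as a depth.

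The label low complexity held in part. The 10 most abundant genes took 6.38% of UMIs in cluster 5, the 100 most abundant 32.7% and the 500 most abundant 56.1%. The other clusters had 43.4% to 65.9% in the top 500, and clusters 11 and 13 were more concentrated than cluster 5. Some UMI was seen for 26635 genes, fewer than the 27821 in cluster 11 with 459 cells and the 29220 in cluster 7 with 1317 cells. The small clusters 12 (24512 genes in 180 cells) and 13 (16104 in 42) had fewer still. Ribosomal protein genes held 23.8% of UMIs, after cluster 13 (30.1%) and cluster 11 (24.0%), while the remaining 11 clusters had 16.4% to 19.6%. Mitochondrially encoded genes held 3.51%, with 2.47% to 6.10% elsewhere. Proteasome subunits (0.982%) and glycolytic genes (1.69%) had their highest share of the 14 clusters here. Long noncoding RNAs (1.79%) and basement membrane genes (0.0356%) had their lowest.

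**Figure D2:**
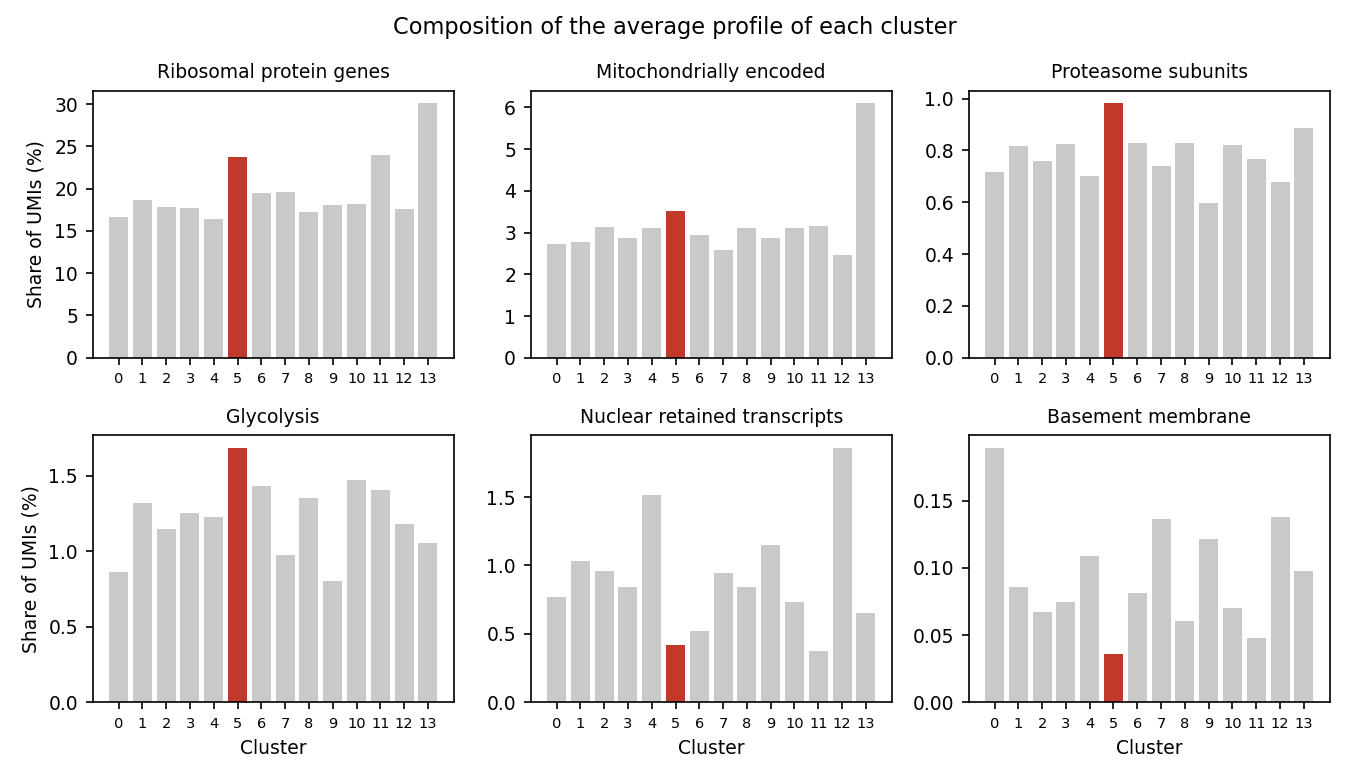
Share of UMIs (%) held by 6 gene lists in the average profile of each cluster, with cluster 5 in red. Ribosomal protein genes took 23.8% in cluster 5, below clusters 13 and 11, and the proteasome and glycolysis shares were the highest of the 14 clusters.

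Across genes, the profile of cluster 5 was mostly one of losses. The difference of a gene is the log2 of its average in cluster 5 plus 0.1 over the mean of the other 13 averages plus 0.1, for the 12139 genes with a mean of at least 0.05 UMIs per 10000. This scale understates the change of low genes. At least 2-fold higher were 18 genes (0.148%), and 516 (4.25%) were at least 2-fold lower. At 1.5-fold, a threshold added later, 231 genes were higher (1.90%) and 2489 lower (20.5%). The median of all genes was −0.24, with 28.8% of genes above 0 and 71.2% below. Clusters 11 and 13 had lower medians (−0.29 and −0.51), with 82 and 224 genes at least 2-fold higher and 609 and 2897 lower. After rescaling the columns by their median of ratios, the median of cluster 5 moved to −0.01, with 92 genes at least 2-fold higher and 152 lower. List medians are therefore to be read against the −0.24 of all genes, or against −0.21 where clusters 6, 8 and 10 are the comparison. The share of all genes above 0 was not taken against clusters 6, 8 and 10. Counts of list members above 0 in that comparison therefore lack this base. There the median of 10 of 41 lists changed sign, and that of 8 changed its side of the median of all genes. Cluster 5 had the highest of the 14 averages for 607 genes (5.00%).

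The differences went with gene length. Over 11531 genes with a GENCODE transcript, the rank correlation of the difference with genomic span was −0.53 and with transcript length −0.41, as a description over genes that share the same cells. The same values were −0.48 and −0.39 in cluster 11 and −0.52 and −0.49 in cluster 13. In the other 11 clusters the correlation with span ran from −0.02 to 0.34. Over 10 equal bins of genes by span, the median difference went from 0.10 in the shortest genes (up to 6652 bases) to −0.70 in the longest (from 207874 bases). In the bin of longest span 20.2% of genes were at least 2-fold lower, against 2.43% in the shortest. By transcript length the medians went from 0.08 (up to 1194 bases) to −0.54 (from 7950 bases).

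Span went with the difference within every bin of transcript length. Within the bin of shortest spans, transcript length set only the shortest transcripts apart, since the other 4 bins had medians from −0.05 to −0.01. In the 4 bins of longer span the longest transcripts had lower medians than the shortest. By increasing span, these went from 0.05 to −0.20, −0.02 to −0.28, −0.19 to −0.44 and −0.46 to −0.70. The bins are wide at their long ends. With genes in 5 equal bins of each measure, the bin of shortest transcripts had a median of 0.14 for the shortest spans (1137 genes) and of −0.46 for the longest (191 genes). Among the longest transcripts it was −0.02 for the shortest spans (45 genes) and −0.70 for the longest (1004 genes). The shortest 1 of these 5 bins exceeded the longest by 0.53 by transcript length and 0.66 by span, and against clusters 6, 8 and 10 alone these contrasts were 0.54 and 0.67. RNA stability was not measured here. Long noncoding genes (521) had a median of −0.34, with 9.40% at least 2-fold lower, and protein-coding genes (11003) one of −0.23 with 3.89%.

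Ribosomal protein genes as a list had a median difference of 0.32, with 75 of 79 above 0, 10 at least 1.5-fold higher and 15 at their highest of the 14 clusters. Cluster 13 had a median of 0.53 and cluster 11 one of 0.17. All 79 were above 0 against clusters 6, 8 and 10, with a median of 0.39. *RPS29*, a small subunit protein, had 23.2 UMIs per 10000 in cluster 5, and the other clusters ran from 8.04 through a median of 14.5 to 17.2. *RPL27A* (15.7, others 7.67 to 11.8) and *RPL38* (19.6, others 7.65 to 15.3), both of the large subunit, also lay above every other cluster. *RPL41*, in contrast, had 81.1 UMIs per 10000, below the 117 of cluster 11. Reads of ribosomal protein genes can be shared with their many processed pseudogenes, and how the counting split them is not known.

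Other lists of the translation and energy machinery lay on the same side. Translation genes outside the ribosome had a median of 0.15 (20 genes), led by the initiation factor subunit *EIF3F* (3.44 UMIs per 10000, others 1.74 to 2.71). Mitochondrial ribosomal proteins had 0.23 (61 genes), with *MRPL28* at 1.91 and others at 0.567 to 1.38. Nuclear encoded subunits of the respiratory chain had 0.30 (78 genes, 67 above 0, none at least 2-fold higher). Their values in clusters 11 and 13 were 0.31 and 0.29. *ATP5ME*, a small ATP synthase subunit, had 4.58 UMIs per 10000, below the 5.33 of cluster 11 and above the median of 2.46 elsewhere. Sm and LSm proteins, the rings around spliceosomal RNAs, had a median of 0.30 (19 genes), below the 0.53 of cluster 11.

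The 13 protein-coding genes of the mitochondrial genome had a median of −0.01 as a list, but those with the shortest annotation differed from the rest. Lengths here are those of the annotated genes, which need not be lengths of separate messages. The 3 shortest, *MT-ATP8* (207 bases), *MT-ND4L* (297) and *MT-ND3* (346), were each at their highest of the 14 clusters, with differences of 0.81, 0.67 and 0.83. The 10 others, of 525 to 1812 bases, had differences from −0.25 to 0.24. *MT-ND3*, a subunit of respiratory complex I, had 57.4 UMIs per 10000 with 15.04 to 54.8 elsewhere. *MT-ATP8*, part of ATP synthase, had 4.44 with 0.917 to 3.13 elsewhere. *MT-ND5*, also of complex I, had 4.18 with 2.07 to 6.27, and *MT-CO1* of cytochrome oxidase 39.4 with 36.5 to 82.7. The differences of the 3 shortest from clusters 6, 8 and 10 were 0.62, 0.43 and 0.48. *MTRNR2L12*, a nuclear gene nearly identical to the mitochondrial 16S ribosomal RNA, had 6.17 UMIs per 10000 with 1.38 to 3.74 elsewhere, and *MTRNR2L8* had 1.03 with 0.376 to 0.649. Their reads cannot be told from mitochondrial ones. The remaining mitochondrial genes and this pair were added to the named genes with their values known.

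Proteasome subunits set cluster 5 apart from cluster 11, which it resembled in length, and by list median less so from cluster 13. The proteasome is the protease that degrades ubiquitin-tagged proteins. Its 32 genes had a median difference of 0.39, the highest of the 14 clusters, with 30 above 0 and 12 at their highest average. The medians were −0.23 in cluster 11 and 0.02 in cluster 13, and no other cluster exceeded 0.12. For all genes, the medians of clusters 11 and 13 were −0.29 and −0.51. By share of UMIs, cluster 13 (0.888%) came next after cluster 5 (0.982%). *PSMC3*, an ATPase of the regulatory particle, had 2.15 UMIs per 10000, and the others ran from 0.590 through a median of 1.21 to 1.87. *PSMD11* (3.53, others 0.615 to 3.40) and *PSMD6* (1.46, others 0.303 to 1.32) of the same particle were just above the highest other cluster. The list median against clusters 6, 8 and 10 was 0.27, with 27 of 32 above 0. Ubiquitin and its small relatives had a median of 0.20 (10 genes). *UBB*, which encodes ubiquitin itself, had 16.3 with 4.89 to 12.2 elsewhere.

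Cytosolic chaperones had a median of 0.31 in cluster 5 (20 genes, 7 at their highest), against −0.26 in cluster 11 and −0.60 in cluster 13. *CCT7*, a subunit of the ring that folds actin and tubulin, had 3.30 UMIs per 10000 and the others 1.20 to 2.14. Its partners lay closer to the other clusters, since *CCT2* had 6.15 (others 1.89 to 6.13), *CCT4* 4.99 (2.33 to 4.79) and *CCT6A* 4.28 (1.41 to 5.22). *FKBP4*, a co-chaperone of HSP90, had 4.68, just below the 4.87 of cluster 6. Tubulins and intermediate filaments had a median of 0.29 (16 genes), with *TUBA1B* at 10.95 and others at 5.95 to 10.4. Set against clusters 6, 8 and 10, chaperones had a median of 0.11, a smaller value than against all clusters.

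Glycolytic genes had a median of 0.31 (19 genes, 15 above 0, 8 at their highest), against 0.03 in cluster 11 and −0.49 in cluster 13. *GAPDH*, a glycolytic enzyme often used as a reference, had 66.2 UMIs per 10000 with 28.7 to 59.1 elsewhere. *LDHA*, which turns pyruvate into lactate, had 14.02 (others 2.29 to 11.8), and *PKM*, pyruvate kinase, 7.94 (3.01 to 7.22). The glucose transporter *SLC2A3* went the other way, with 4.26 and others at 3.73 to 17.8. The median of the list was 0.22 against clusters 6, 8 and 10.

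Nuclear retained transcripts had a median of −0.86 (12 genes, 11 below 0, 5 at least 2-fold lower). *MALAT1* had 32.8 UMIs per 10000 in cluster 5, and the other clusters ran from 25.4 through a median of 68.8 to 120. *NEAT1*, the scaffold of paraspeckles (chr11:65422774-65445540, plus strand), had 4.45 and the others 4.47 to 53.03. *KCNQ1OT1*, an imprinted antisense RNA, had 0.264 and *MEG3*, another imprinted RNA, 0.0682, with 0.252 to 2.65 and 0.0941 to 1.10 elsewhere. The list median was −1.13 in cluster 11 and −1.12 in cluster 13. It was −0.60 against clusters 6, 8 and 10, where none of the 12 was above 0.

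Genes for large chromatin proteins had a median of −0.63 (29 genes, 0 above 0). *ARID1B*, a subunit of a chromatin remodelling complex, had 0.576 UMIs per 10000 with 0.380 to 1.85 elsewhere, and *ATRX*, another remodeller, 1.13 with 0.509 to 4.22. The cluster lowest in *ARID1B* and *ATRX* was 13. Large cytoskeletal proteins had a median of −0.69 (20 genes, 19 below 0), with *DST*, a giant linker of filaments, at 0.623 and others at 0.493 to 3.75. Small proteins of the actin cytoskeleton had a median of 0.21 (21 genes, 17 above 0), with the actin-severing *CFL1* at 13.99 and others at 5.26 to 13.4. Nuclear speckle and splicing factors had −0.33 (28 genes), a value close to that of all genes, and hnRNPs 0.14 (19 genes), with −0.06 against clusters 6, 8 and 10. Host genes of small nucleolar RNAs had −0.03 (16 genes), with *SNHG3* at 0.566 and others at 0.631 to 1.99.

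Genes of the secretory route, the basement membrane and cholesterol synthesis were low. Endoplasmic reticulum chaperones had a median of −0.46 (18 genes, 16 below 0). *HSP90B1* had 3.67 UMIs per 10000 and the others 2.24 through 8.39 to 10.9, and *PDIA6*, a disulfide isomerase, had 1.80 with 2.04 to 5.31 elsewhere. Basement membrane genes had the lowest median of any of the 14 clusters at −1.12 (15 genes, 0 above 0, 8 at least 2-fold lower). The collagen IV genes *COL4A1* and *COL4A2* had 0.211 (others 0.251 to 2.66) and 0.284 (0.394 to 2.75), and the matrix protein *SPARC* 0.780 (1.16 to 4.86). Cholesterol synthesis genes had −0.65 (23 genes, 21 below 0). The medians of these 3 lists against clusters 6, 8 and 10 were −0.54, −0.74 and −0.42. In cluster 11 the 3 list medians were −0.42, −0.84 and −0.66, and in cluster 13 they were −0.67, −0.39 and 0.05. Low values of these lists are therefore not particular to cluster 5. How far the length of these genes went with their low values was not tested.

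**Figure D3:**
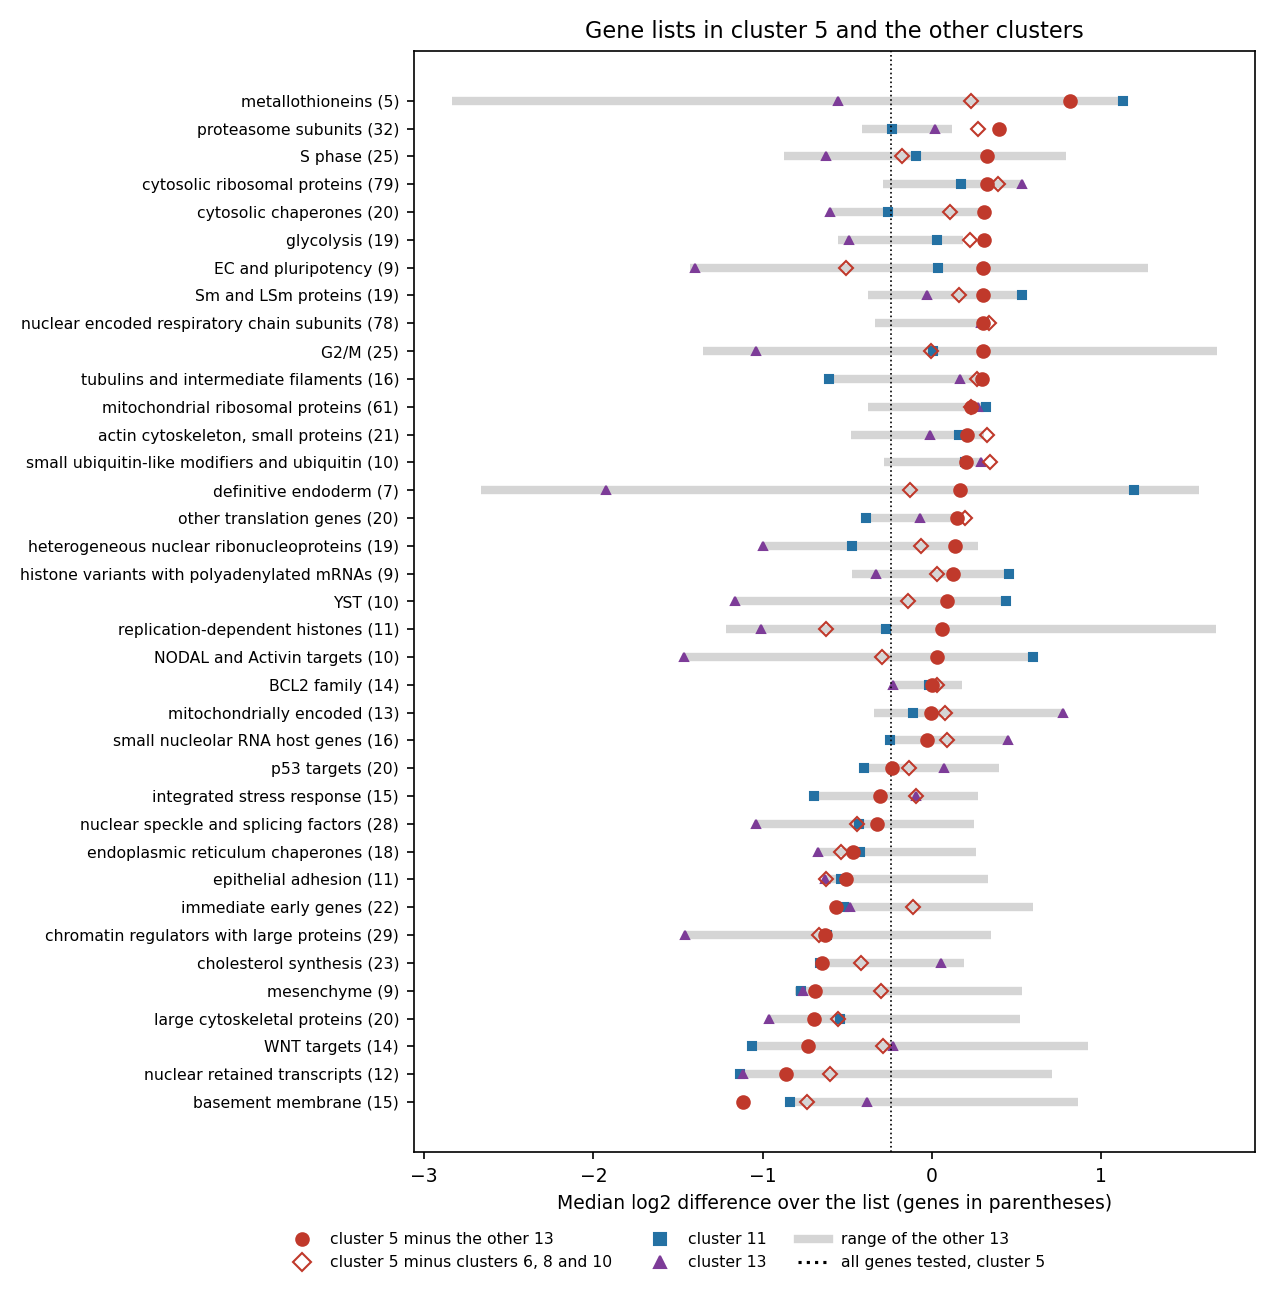
Median log2 difference of each gene list with at least 5 genes that passed the filter. Cluster 5 is set against the other 13 (filled circles) and against clusters 6, 8 and 10 (open diamonds). Clusters 11 and 13 and the range of the other 13 clusters (grey) are shown too. Proteasome subunits (0.39), glycolysis (0.31) and cytosolic chaperones (0.31) lay above the grey range, with tubulins and intermediate filaments (0.29) at its upper edge. Basement membrane genes (−1.12) and immediate early genes (−0.57) lay below it, and the dotted line marks the −0.24 of all genes.

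Lists of stress and damage genes had medians near or below 0, except metallothioneins. Immediate early genes, which respond within minutes to stimulation and to tissue handling, had a median of −0.57 (22 genes, 6 at least 2-fold lower), the lowest of the 14 clusters. Clusters 11, 6 and 13 were close at −0.52, −0.49 and −0.48, where all genes had −0.29, −0.05 and −0.51. *EGR1* had 0.173 UMIs per 10000 (others 0.157 to 2.40), *FOS* 0.385 (0.302 to 3.70) and *JUN* 0.690 (0.580 to 3.96), each lowest in cluster 11. Against clusters 6, 8 and 10 the list median was −0.11, above the −0.21 of all genes in that comparison. The integrated stress response had −0.31 (15 genes), with *DDIT3* at 0.840 and others at 0.492 to 4.96. p53 targets had −0.24 (20 genes), with *CDKN1A*, an inhibitor of the cell cycle, at 0.286 and others at 0.316 to 1.33. The BCL2 family of cell death regulators had 0.00 (14 genes, 7 above 0). Metallothioneins, which bind zinc and copper, had 0.82 (5 genes, all above 0), below the 1.13 of cluster 11, and *MT2A* had 24.3 with 0.257 to 32.0 elsewhere. Their median was 0.23 against clusters 6, 8 and 10.

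Genes of both parts of the cell cycle were above the median of all genes. S phase genes had a median of 0.33 (25 genes, 22 above 0) and G2/M genes one of 0.30 (25 genes, 17 above 0), each the third highest of the 14 clusters. The G2/M genes differed among themselves. *UBE2C*, a ubiquitin-conjugating enzyme of mitotic exit, had 4.02 UMIs per 10000 (others 0.0933 to 7.78) and a difference of 0.99. *PLK1*, a mitotic kinase, had 0.652 (0.0628 to 1.27) and a difference of 0.88. *ASPM*, a spindle pole protein, had 0.306 (0.164 to 2.79) and a difference of −0.88, and *CENPF*, *TOP2A* and *MKI67*, added after their values were seen, had differences of −0.44, 0.38 and −0.11. In the comparison with clusters 6, 8 and 10 the list medians were −0.18 in S phase and −0.01 in G2/M, where all genes had −0.21. Histone variants with polyadenylated messages had a median of 0.12 (9 genes). Replication-dependent histones had 0.06 (11 genes) against all other clusters and −0.62 against those 3.

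As to identity, EC genes were present at levels between those of the other clusters. *POU5F1* (OCT3/4), the pluripotency factor of the label (chr6:31164337-31180731, minus strand), had 1.90 UMIs per 10000. That was the third highest after clusters 6 (3.96) and 10 (2.44), with a median of 0.493 and a lowest value of 0.0265 elsewhere. It was seen in 27.0% of the cells of cluster 5 and 44.8% of other cells. The difference was 0.88 against all other clusters and −0.30 against clusters 6, 8 and 10, so its direction depended on the clusters it was set against. *ACTB*, the other gene of the label (chr7:5526409-5563902, minus strand), had 23.2, above all others (12.6 to 22.0), and its difference was 0.44 against all and 0.25 against those 3.

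Of the 10 EC and pluripotency genes, 9 passed the filter, with a median difference of 0.30 and 6 above 0. Their summed level was 7.30 UMIs per 10000 and 1.46 to 15.7 elsewhere. *NANOG* had 0.366 (others 0.00721 to 1.06), *SOX2* 0.365 (0.0408 to 1.60), *LIN28A* 1.29 (0.414 to 1.62) and *L1TD1* 1.496 (0.286 to 3.46). *PRDM14* had 0.0445 and did not pass. With clusters 6, 8 and 10 as the comparison, the median was −0.51 and 1 of 9 was above 0. Copies of *POU5F1* and *NANOG* elsewhere in the genome can take part of their reads.

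*SOX17*, the induced endoderm factor, had 0.614 UMIs per 10000 in cluster 5, the seventh of 14, with a median of 0.329 and a highest value of 20.97 in cluster 0. Of the 14 YST genes, 10 passed, with a median of 0.09 and a summed level of 4.69 (others 2.59 to 24.0). *GPC3*, a surface proteoglycan of YST, had 0.299 (0.209 to 9.78), and *ANKRD1* had 2.11 (0.156 to 6.84). *AFP* (0.0148), *APOA2* (0.000955), *APOB* (0.00124) and *FOXA2* (0.000481) did not pass and were near 0 here. They were near 0 in every other cluster too, with *AFP* at 0.0137 or less. Among definitive endoderm genes 7 of 10 passed with a median of 0.17. Against clusters 6, 8 and 10 the YST median was −0.14 (1 of 10 above 0) and the definitive endoderm median −0.13 (3 of 7 above 0), so both changed sign. *MIXL1* (1.35, others 0.0720 to 1.87) and *EOMES* (0.905, 0 to 1.54), factors of the primitive streak, were above the mean of the others. They ranked 4 and 5 of the 14 clusters. *CXCR4*, also a definitive endoderm gene, had 0.0296, below every other cluster (0.0309 to 0.387). Of the 7 endoderm genes that passed, 4 were above 0 and 3 below against all other clusters.

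Markers of other fates varied. Of 8 mesoderm genes 4 passed, all below 0 with a median of −0.99, and *MSGN1* had 0.083 (others 0.0156 to 4.58). All 4 were highest in cluster 9, which raised both the mean used by the filter and the mean of the others. A value below 0 is therefore not particular to cluster 5, and the middle list median of the other clusters was −0.49. From the top of 14 clusters, cluster 5 ranked 8 for *MSGN1*, 10 for *TBX6*, 11 for *DLL3* and 14 for *TBXT*. Mesenchyme genes had −0.69 (9 genes) with a summed level of 28.4 (14.7 through a median of 23.5 to 51.3 elsewhere), and epithelial adhesion genes −0.51 (11 genes). The mesenchyme median was lower in clusters 6 (−0.81), 11 (−0.77) and 13 (−0.76), and the epithelial median in clusters 11 (−0.54) and 13 (−0.63). WNT targets had −0.73 (14 genes, 13 below 0), with *AXIN2* at 0.249 and others at 0.162 to 1.94. The WNT list median was −1.06 in cluster 11 and −0.68 in cluster 6, and highest in cluster 9 at 0.92. The WNT median was −0.29 against clusters 6, 8 and 10. NODAL and Activin targets had 0.03 (10 genes) and −0.29 against those 3. Trophoblast (4 of 8 passed, median −0.33), neural (3 of 8, −0.42) and endothelial and blood genes (2 of 7 measured, −0.36) held few UMIs, with summed levels of 0.252, 1.79 and 0.124.

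Single genes at the ends of the profile followed these lines in part. The lowest was *SOX5*, a transcription factor gene of long span, with 1.08 UMIs per 10000 against 1.30 to 37.2 elsewhere and a difference of −2.72. *NRG1*, a growth factor gene of long span, had 0.0729 with 0.0841 to 3.77 elsewhere, and *NAV2* 0.300 with 0.343 to 4.87. *SOX17* itself spans only 2958 bases and had the second lowest difference (−2.51), and the mean of the others was 3.95 with a median of 0.329. Against clusters 6, 8 and 10 the difference of *SOX5* was −1.89 and of *NRG1* −1.22.

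*LRRC75A* led the high end with 2.11 UMIs per 10000, while the other clusters ran from 0.262 to 0.681 and clusters 6, 8 and 10 gave a difference of 1.75. It was nevertheless detected in 25.8% of cells in cluster 5 and 59.5% elsewhere. Its gene (chr17:16441577-16492193, minus strand) overlaps *SNHG29* (chr17:16438767-16480249, plus strand), an abundant host gene of small nucleolar RNAs, and reads of the pair cannot be told apart here without knowing how strand was counted. *SNHG29* had 14.6 with 10.0 to 20.6 elsewhere. *MIR302CHG* (4.18, highest elsewhere 7.62 in cluster 6) and *GLIPR1L1* (3.19, 5.45 in cluster 10) were high in clusters of the same main library as well. Their differences against clusters 6, 8 and 10 were −0.22 and −0.082. *TPM2*, a tropomyosin, had 2.45, above the 0.288 to 1.83 of all others, and *TIMM10*, a small carrier of the mitochondrial import path, 4.07 with 0.810 to 4.48.

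As a whole, the profile of cluster 5 was closest to that of cluster 11. Without ribosomal protein and mitochondrially encoded genes, the rank correlation of averages over 12047 genes was 0.96 with cluster 11, 0.94 with cluster 3, 0.94 with cluster 8 and 0.93 with cluster 10. It was 0.78 with cluster 13 and lowest with cluster 9 at 0.76. These are descriptions over genes, and most genes of any cells of 1 origin rank alike. Cluster 11 drew 86.3% of its cells from the same main library and shared the bias to short genes, but its recovered cells were the deepest of all, with a median of 89383 UMIs. The pair differed in the proteasome, cytosolic chaperone and tubulin lists, where the medians of cluster 11 were −0.23, −0.26 and −0.61. What part the shallow cells of cluster 5 had in its averages was not tested, since the tables give no expression by cell.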

How the data were processed

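Droplet-based libraries of 3 treated EC lines were processed by the authors with Cell Ranger 7.0 (build GRCh38) and then Seurat 4.1.1, as the submitters' processing notes give it. Whether reads in introns were counted, and the annotation release, are not given in the sources used here. By the methods of the study, depth was equalised between libraries, and cells of low quality and doublets were removed before clustering, which limits which shallow cells could appear. The authors deposited a table with the count and the percent of cells per cluster and library code, and the average of each cluster as mean UMIs per 10000, pooled over libraries. They also deposited a marker table with the fraction of cells with a UMI for each listed gene. Its fold changes and p-values are the authors' own comparisons and were not used. Library codes match no label, and cell barcodes were not analysed here.

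For each gene, log2 of (average + 0.1) in cluster 5 over (mean of the other 13 + 0.1) was computed where the mean over 14 clusters was at least 0.05. UMI totals of cells were recovered where 10000 over value times cells was whole within a relative 1e-10. A total was dropped where a whole multiple of it, up to 4-fold, was also recovered in the same cluster. Lengths, from 1 canonical transcript a gene, and positions came from GENCODE 44, with 11531 of 12139 tested genes matched by symbol or older symbol. Promoters came from RefSeq. The members and 41 gene lists were chosen with earlier results of these data known. Named genes were the label genes, all EC genes, the 10 highest and 10 lowest differences among genes with a mean of at least 0.5, the 4 largest differences of each list and the 10 highest averages. Some genes that this rule names are not reported here. Others are said to have been added, and further YST genes are named as members of the label list, as is *MALAT1*. Of the chaperonin subunits, *CCT2*, *CCT4* and *CCT6A*, and *SNHG29*, were added after their values were seen. Alternatives were other pseudocounts, filters, rescaling, removal of ribosomal protein and mitochondrial genes, and other averages of the clusters. The calculation was tested on simulated averages. Intervals cover counting error only. Python 3.11.15, pandas 2.3.3, numpy 2.4.6, scipy 1.17.1 and matplotlib 3.10.9 were used.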

Additional observations from a re-analysis of the deposited data

How the results depend on the processing

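No paired analysis was possible because each line had 1 library and the averages pool the libraries. No error between cultures can be given, and depth is known only from the cell totals recovered. The count of genes at least 2-fold higher (18) was 67 with a pseudocount of 0.01, 4 with 1, 9 with a mean of at least 0.5, 92 after median of ratios rescaling, 30 without ribosomal protein and mitochondrial genes and 10 against clusters 6, 8 and 10. The count at least 2-fold lower (516) was 2091, 13, 309 and 152 under the first 4 of these settings and 798 without clusters 11 and 13 among the others. The mesoderm median (−0.99) was −2.15 and −0.20 with pseudocounts of 0.01 and 1, −0.29 with no filter and −1.95 with a mean of at least 0.5. The basement membrane median (−1.12) was −0.28 with a pseudocount of 1. With a mean of at least 0.5 the YST median was −1.14 and the WNT median −1.44. Without the library with most cells in it, cluster 5 held 3.97% of cells. Against clusters 6, 8 and 10, chosen after the data were seen, the replication-dependent histone median was −0.62 and the EC median −0.51. There 28 of 211 named genes changed sign, 8 of them with a difference of at least 1.5-fold in either direction against all clusters, namely *POU5F1* at −0.30, *MIR302CHG* at −0.22, *GLIPR1L1* at −0.082, *TUBA1A* at 0.31, *ISG15* at 0.33, *DDIT3* at 0.10, *MCM4* at −0.16 and *FOXH1* at −0.033. The cause of these changes was not tested. Of 41 list medians, 28 kept their sign and 28 their side of the median of all genes under every alternative in which they had a value. The ribosomal protein, proteasome, glycolysis, nuclear retained, large chromatin and basement membrane lists were among both.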
